A study of Mus musculus with 2 samples.

Results

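The complement genes and receptors examined here were 9 of the 31053 genes counted, chosen by symbol. *C1qa*, *C1qb* and *C1qc* encode the chains of C1q, *C3*, *C4b*, *Cfb* and *Cfp* encode components that carry the cascade forward, and *C3ar1* and *C5ar1* encode receptors for its cleaved fragments. They were followed in single CD45+ leukocytes that had been sorted from mouse melanomas on day 4, in C57BL/6 hosts that were 8 weeks old. In both groups the tumor cells were *Braf*-mutant melanoma cells described in titles and design as deficient in *Ptgs*, the genes of the cyclooxygenases. A genotype label shared by both samples reads wild type, and this conflict was left unresolved. Control hosts were untreated, whereas NK cell-depleted hosts had been given 200 µg of the NK1.1 antibody PK136 together with 30 µg of antibody to asialo GM1, on days 0 and 2. Tumors were pooled within a group, so that each group was 1 library and no difference below has a replicate check or a p-value. Both samples also held added parental melanoma cells.

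Complement is a cascade of proteins made mostly by the liver but also locally by leukocytes. C1q recognises antibody-coated or dying cells and starts the classical pathway, in which C4 is cleaved, and tissue macrophages are a well-known source of C1q. All pathways meet at C3, factor B and properdin build and stabilise the alternative-pathway enzyme that cleaves it, and the released fragments C3a and C5a act on leukocytes through C3ar1 and C5ar1.

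In GRCm38 (GENCODE vM21), all 9 are protein-coding genes on the minus strand. The C1q genes lie close together on chromosome 4, with *C1qb* at chr4:136880129-136886187, *C1qc* at chr4:136889804-136893065 and *C1qa* at chr4:136895917-136898803. *C4b* (chr17:34728380-34743882) and *Cfb* (chr17:34856374-34862518) lie in one region of chromosome 17, and *C3* (chr17:57203970-57228136) lies farther along it. The remaining genes are *C3ar1* at chr6:122847138-122856161, *C5ar1* at chr7:16246743-16259540 and *Cfp* at chrX:20925454-20931555. Exons of *Cfb* overlap those of *Gm20547* on the same strand, so reads from the shared exons could not be assigned and the level of *Cfb* is uncertain. The level of *C4b* is uncertain too, because its near-identical copy *C4a* was not analysed here.

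Upstream sequence was at hand from RefSeq (GRCm38.p6) for 6 of the 9 genes, and not for *C1qa*, *C4b* and *Cfb*. The bases before the start site are shown for *C1qb*, *C3* and *C3ar1*, whose levels peaked in different clusters of cells (below). They are read 5′ to 3′ on the gene's strand, from chr4:136886201-136886450, chr17:57228137-57228386 and chr6:122856162-122856407, each on the minus strand, and capitals mark matches to the motifs searched. The *C3ar1* stretch has 246 bases, since its last letters before the RefSeq start lie within an annotated exon and are not shown.
C1qb: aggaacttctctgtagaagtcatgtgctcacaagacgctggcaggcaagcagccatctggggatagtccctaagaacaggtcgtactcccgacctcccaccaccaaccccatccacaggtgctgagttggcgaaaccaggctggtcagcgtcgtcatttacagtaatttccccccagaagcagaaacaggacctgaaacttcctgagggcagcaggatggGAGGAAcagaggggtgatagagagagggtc
C3: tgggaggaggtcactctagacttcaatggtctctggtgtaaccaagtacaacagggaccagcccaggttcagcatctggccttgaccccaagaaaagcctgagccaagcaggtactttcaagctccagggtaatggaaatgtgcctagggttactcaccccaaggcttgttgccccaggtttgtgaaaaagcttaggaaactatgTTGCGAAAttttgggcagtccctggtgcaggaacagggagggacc
C3ar1: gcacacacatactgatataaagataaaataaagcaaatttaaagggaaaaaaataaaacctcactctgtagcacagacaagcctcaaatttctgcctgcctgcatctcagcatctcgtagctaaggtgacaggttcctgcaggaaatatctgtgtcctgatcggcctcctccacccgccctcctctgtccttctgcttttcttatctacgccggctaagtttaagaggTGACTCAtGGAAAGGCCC
The 6 motifs searched on both strands of the 250 bases before each start were the PU.1 core GAGGAA, the IRF motif (GAAA, any 2 bases, GAAA), the STAT motif TTCNNNGAA, the C/EBP motif TTGCNNAA, the NF-kB motif (GGG, any 2 bases, TT, any base, CC) and the AP-1 motif TGANTCA. The *C1qb* window held the PU.1 core 30 to 25 bases before the start, and that of *C1qc* held it on the opposite strand, 193 to 188 bases before the start. Among all 32851 promoters of the table, 23.3% held this core. The *C3* window held the C/EBP motif (45 to 38 bases before the start), which 9.56% of promoters held. The *C3ar1* window held the AP-1 motif (22 to 16 bases before the start, in 6.75% of promoters) beside the NF-kB motif on the opposite strand (14 to 5 bases, in 4.11%). The windows of *C5ar1* and *Cfp* held none of the 6 motifs. These matches describe letters and not binding sites, and the IRF and STAT motifs were in none of the 6 windows (2.98% and 7.02% of all promoters).

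After filtering, 5292 control and 4506 NK cell-depleted cells remained, with medians of 4170 and 4893 UMIs (unique molecular identifiers, which count transcript molecules) per cell. The libraries shared 5 cell barcodes. Cells were clustered without complement and interferon-response genes, and clusters were named by marker lists, so differences from the study's clusters may come from these rebuilt names. The largest class was monocyte/macrophage-like, with 3604 control and 3252 NK cell-depleted cells in 12 clusters, and it carried *Csf1r* at 477 and 466 CPM (UMIs per 1000000 UMIs of the summed cells) against 3.20 and 3.61 CPM in T-like cells. All intervals below are exact 95% intervals of the counts and cover counting error only.

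To locate the transcripts, UMIs of each gene were summed over the cell classes. Monocyte/macrophage-like cells held 97.8% of all UMIs of the 9 genes in the control library and 97.9% with NK cells depleted. The C1q chains weighed heavily in these shares, with 59342 control and 48920 NK cell-depleted UMIs over all classes. Of the UMIs of all genes, monocyte/macrophage-like cells held 20180434 of 24810009 in the control library and 19330656 of 23245982 with NK cells depleted. For *C1qa*, *C1qb*, *C1qc*, *C3ar1*, *C4b* and *Cfb* the share was 98.5% or more in either library. It was lower for *C3* (91.8% and 93.3%), *Cfp* (92.5% and 92.4%) and *C5ar1* (91.7% and 89.1%), whose other UMIs lay mainly in neutrophil-like cells and in cluster 8. A small share of UMIs can hide a level in a small class. In 69 eosinophil-like cells of the NK cell-depleted library *C3ar1* was at 240 CPM (120 to 429), from 11 UMIs. The 16 control cells of that class had 1 UMI of it.

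*C5ar1*, the receptor that draws neutrophils toward C5a, stood at 648 CPM (578 to 722) in neutrophil-like cells of the control library and at 734 CPM (670 to 802) in those of the NK cell-depleted library, far above the 193 and 212 CPM of monocyte/macrophage-like cells. As a share of UMIs, *C3* was also higher in neutrophil-like cells, at 152 CPM (119 to 190) and 147 CPM (119 to 179). Monocyte/macrophage-like cells had 55.8 and 83.3 CPM. Neutrophil-like cells were shallower, with medians of 1159 and 1296 UMIs against 5100 and 5511. *C3* was seen in 13.4% and 14.8% of neutrophil-like cells, against 18.6% and 26.3% of monocyte/macrophage-like cells. For *C5ar1* these shares were 48.4% and 57.7% against 46.4% and 47.0%. Monocyte/macrophage-like clusters 14 and 5 had more *C3* in CPM than neutrophil-like cells (below). The ratios of the libraries within neutrophil-like cells were within counting error for *C5ar1* (0.882, 0.764 to 1.02), *C3* (1.03, 0.753 to 1.41) and *Cfp* (1.097, 0.830 to 1.45). *C4b* and *Cfb* had 0 UMIs there in both libraries, which allows at most 6.07 CPM of either gene in the control and 4.55 CPM with NK cells depleted.

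*Cfp*, which encodes properdin, was spread most widely. It reached 387 and 398 CPM in monocyte/macrophage-like cells, 319 CPM (289 to 351) and 252 CPM (230 to 275) in cluster 8, which was led by the dendritic cell genes *Cd209a*, *Flt3*, *Xcr1* and *Clec9a*, and 196 and 179 CPM in neutrophil-like cells. In migratory dendritic cell-like cells it was at 117 CPM in the control library (44 UMIs in 66 cells) and 33.8 CPM with NK cells depleted (10 UMIs in 54 cells), with a ratio of 3.47 (1.72 to 7.73). The 5 cells with the most *Cfp* held 65.9% and 80.0% of these UMIs. In T-like cells it was at 6.41 and 9.02 CPM.

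**Figure D1:**
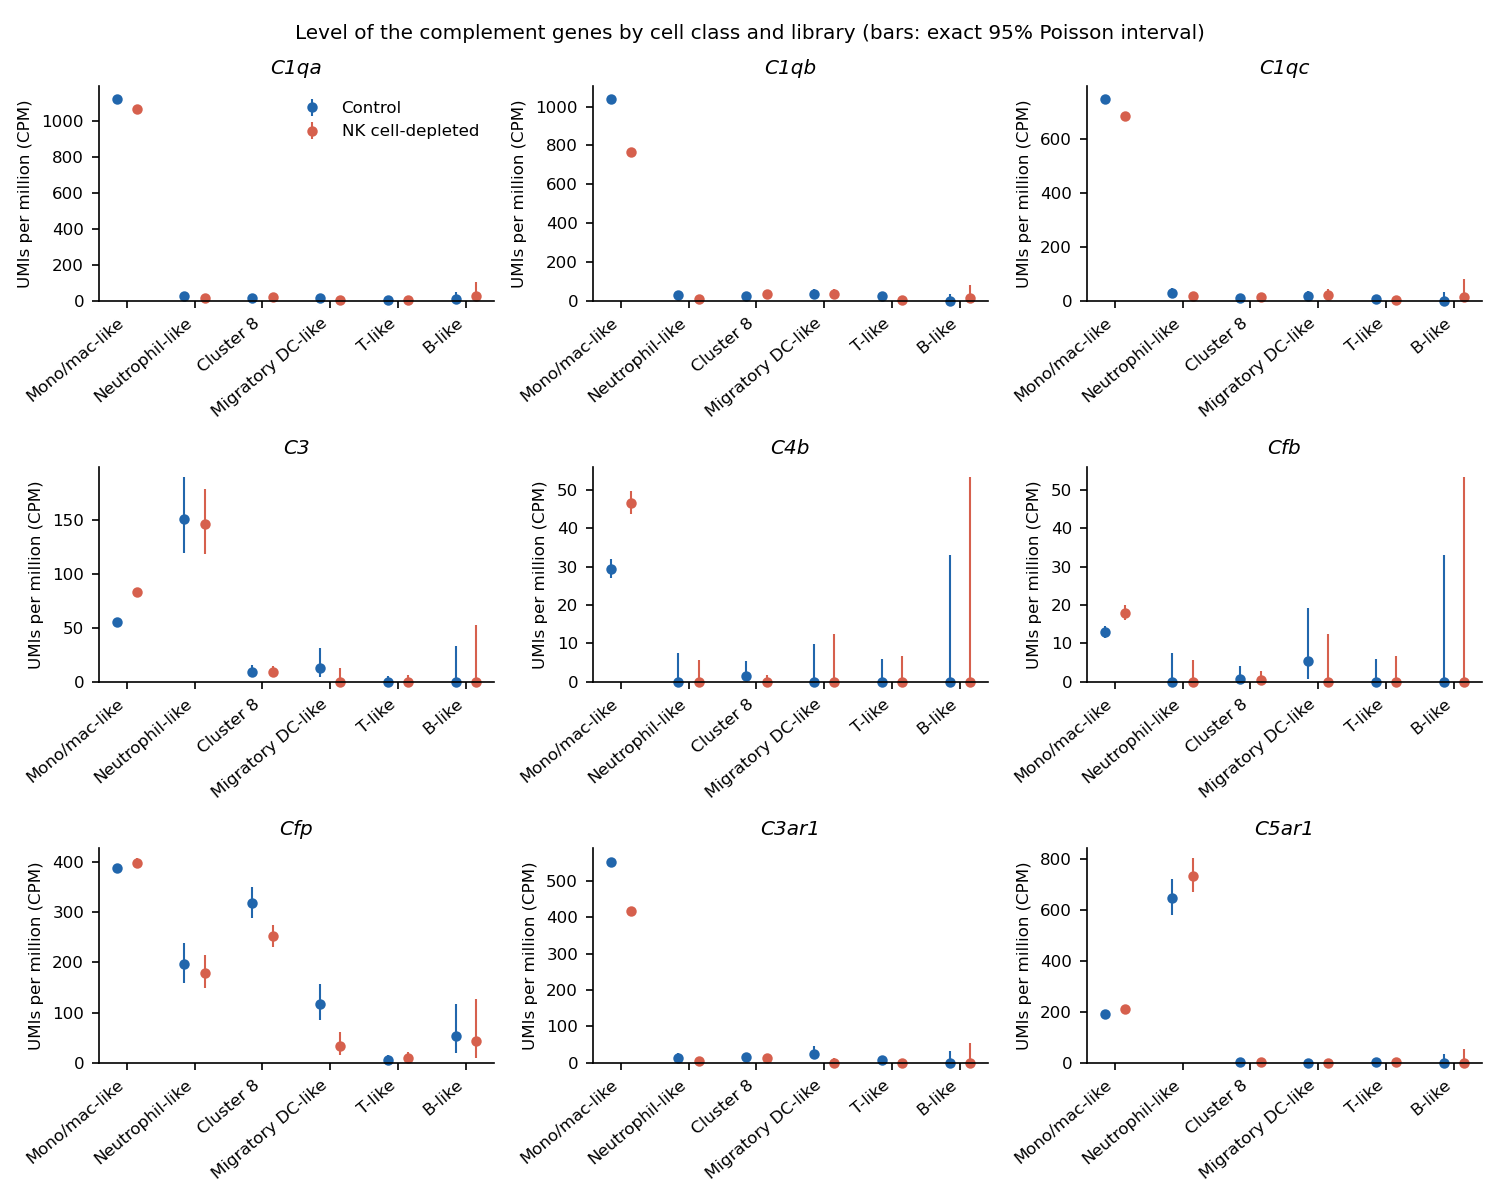
Level of each complement gene (CPM) in 6 cell classes of the control (blue) and NK cell-depleted (red) libraries, with exact 95% Poisson intervals. Among the classes drawn, the C1q chains, *C4b*, *Cfb* and *C3ar1* sit almost wholly in monocyte/macrophage-like cells, *C5ar1* and *C3* are highest in neutrophil-like cells, and *Cfp* is also seen in cluster 8. NK-like, eosinophil-like and melanoma-like cells are not drawn.

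The C1q chains outside these cells were near background. The 3 chains together had 2909 and 2519 CPM in monocyte/macrophage-like cells, against 36.8 and 14.4 CPM in T-like cells, 54.3 and 68.4 CPM in cluster 8 and 87.0 and 44.0 CPM in neutrophil-like cells. In the control library, NK-like cells of cluster 7 (543 cells) had 30.4 CPM (21.8 to 41.2). Another 21 control cells named NK-like, in cluster 21, carried 1003 CPM of *C1qa* together with 321 CPM of *Csf1r* and 1612 CPM of the granzyme gene *Gzma*, at a median of 8266 UMIs per cell. Doublets were called over all cells (below), but the calls were not examined for these cells separately. At least 1 C1q UMI was seen in 62.8% of control and 52.9% of NK cell-depleted monocyte/macrophage-like cells (medians of 5100 and 5511 UMIs), and in 7.69% and 3.62% of T-like cells (medians of 2078 and 2327 UMIs), which should lack the genes. With every cell thinned to 2000 UMIs, *C1qa* was seen in 45.5% (43.8 to 47.3) and 37.0% (35.3 to 38.8) of monocyte/macrophage-like cells, compared with 51.0% and 41.8% before thinning. For this comparison 330 control and 241 NK cell-depleted cells were too shallow and were left out. All 3 chains were seen in 45.2% of control and 35.8% of NK cell-depleted cells of the class, and none in 37.2% and 47.1%.

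Next, levels were compared among the 12 monocyte/macrophage-like clusters. The C1q chain sum had the same highest and lowest clusters in both libraries. Cluster 11, led by *Ccl8*, *Gas6*, *Lyve1* and *Folr2*, had the highest chain sum, at 6947 CPM in the control and 5587 CPM with NK cells depleted. Cluster 2 (*Pf4*, *Ms4a7*, *Itga9*) followed with 4724 and 3942 CPM. The lowest levels were in cluster 5 (*Ace*, *Chil3*, *Adgre4*), at 44.3 and 99.4 CPM. Cluster 14, at 69.5 and 114 CPM, overlapped cluster 5 within counting error in both libraries. The chain sum in the highest cluster was 157-fold that of the lowest in the control library and 56.2-fold with NK cells depleted. These folds rest on a lowest level close to that of cells outside the class. Across the 12 clusters, summed over libraries, log2(CPM + 1) of *C1qa* and *C1qb* correlated with Pearson's r = 0.99 and that of *C1qa* and *C1qc* with r = 0.998, a description of clusters that share their libraries.

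*C3* had another order of clusters. It was highest in cluster 14 (*Cd177*, *Hp*, *Chil3*, *Vcan*), at 314 CPM (252 to 388) in the control and 313 CPM (256 to 379) with NK cells depleted, and in cluster 5, at 276 CPM (241 to 314) and 274 CPM (253 to 296). These neighbors in the order overlapped within counting error. In cluster 11, where C1q peaked, *C3* was at 44.1 and 38.6 CPM, and in cluster 13 (*Retnla*, *Il6*, *Lyz1*) it was at 2.96 CPM (3 UMIs) and 6.91 CPM (11 UMIs). Across the 12 clusters *C3* and *C1qa* had r = -0.50, whereas over the 21 clusters of at least 50 cells r was 0.32.

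*C4b* and *Cfb*, the other thioester protein and the protease of the alternative pathway, were highest in few clusters. *C4b* was at 125 CPM (106 to 147) in cluster 11 of the control library, at 105 CPM (92.2 to 118) in cluster 0 (*Il10*, *Spon1*, *Cbr2*) and at 59.3 CPM (45.2 to 76.3) in cluster 13. In the NK cell-depleted library cluster 13 came first with 111 CPM (95.4 to 129), ahead of cluster 0 with 84.3 CPM (77.3 to 91.9) and cluster 11 with 76.1 CPM (59.4 to 96.0). It was almost absent from cluster 1 (*Gpnmb*, *Mmp13*), with 3 and 4 UMIs. In cluster 15 it was at 50.6 CPM (24.2 to 92.96) and 67.3 CPM (30.8 to 128), from 10 and 9 UMIs, and the latter overlapped the level of cluster 11 with NK cells depleted. *Cfb* was highest in cluster 11 (59.3 and 47.2 CPM) and cluster 0 (45.6 and 43.0 CPM), which did not differ beyond counting error in either library. No other cluster of the class passed 15.6 CPM of *Cfb*. The 5 cells with the most UMIs held 14.1% and 11.6% of the *C4b* UMIs of the class and 6.11% and 5.48% of the *Cfb* UMIs.

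*Cfp* peaked in clusters 13 (849 and 845 CPM) and 15 (*Retnla*, *Lyz1*, *Cgnl1*, with 773 and 725 CPM), which overlapped within counting error. The lowest levels of *Cfp* were in cluster 5 (96.1 CPM) of the control library and in cluster 1 (114 CPM) of the NK cell-depleted library. Of the receptors, *C3ar1* was highest in cluster 2, at 1003 CPM (973 to 1035) and 922 CPM (882 to 963), then in cluster 1, at 852 CPM and 685 CPM, and lowest in cluster 5, at 40.6 and 51.9 CPM. *C5ar1* was also highest in cluster 2 among these clusters, at 344 CPM (326 to 363) and 403 CPM (377 to 431). Thus the order of clusters differed between C1q (11, then 2), *C3* (14 and 5), *Cfp* (13 and 15) and *C3ar1* (2, then 1) in both libraries.

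**Figure D2:**
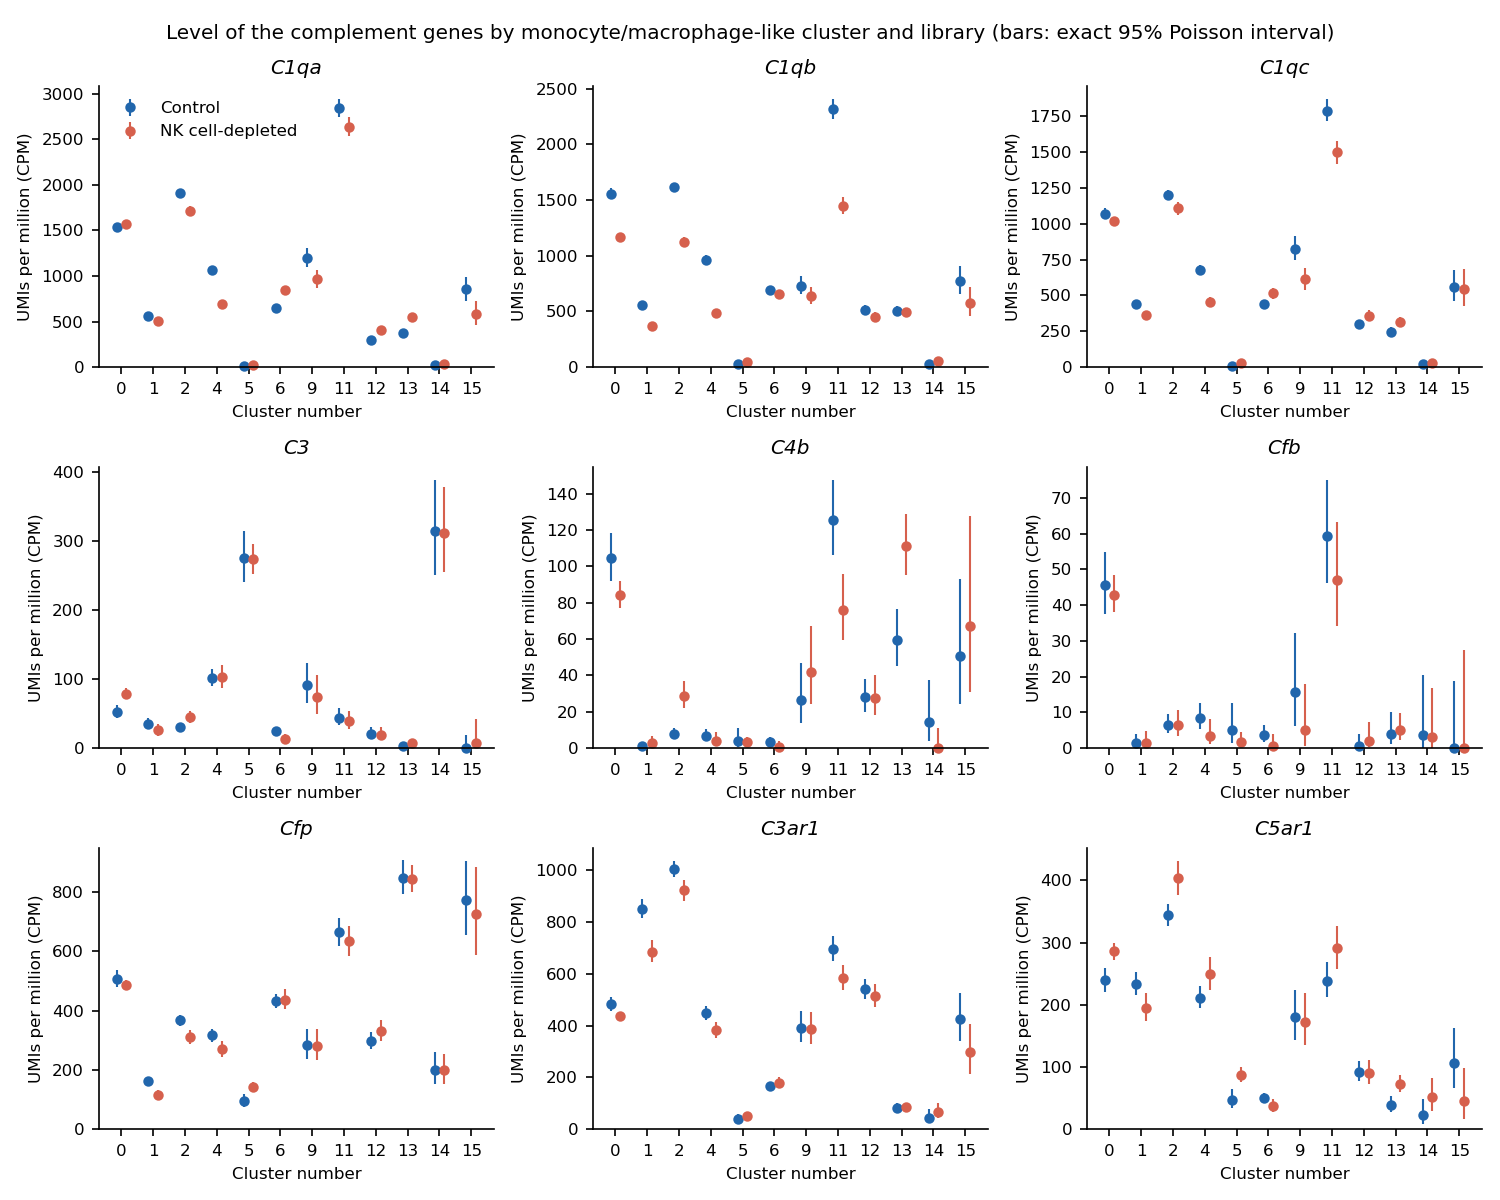
Level of each complement gene (CPM) in the 12 monocyte/macrophage-like clusters of the control (blue) and NK cell-depleted (red) libraries, with exact 95% Poisson intervals. Both libraries give the same highest cluster for 8 of the 9 genes, the exception being *C4b*.

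The genes with the most similar profile over the 21 clusters of at least 50 cells were sought among 9503 genes with at least 200 UMIs, by Pearson's r of log2(CPM + 1). For the C1q chain sum they were *Kcnk13* (r = 0.94), *Mrc1* (0.92) and *Mertk* (0.91), the last encoding a receptor for the uptake of dying cells. For *C3* they were *Gm5150* (0.91), *Mtus1* (0.91) and *Lst1* (0.91). For *C3ar1* they were *Dab2* (0.92), *Trem2* (0.91) and the chemokine gene *Ccl2* (0.90), and for *C5ar1* *Hk3* (0.93), *Slc11a1* (0.93) and *Ccr1* (0.93). *C4b* was most like *Calml4* (0.90), *Trpv4* (0.89) and *Lyz1* (0.89), *Cfb* most like *Spon1* (0.89), *Scarf1* (0.88) and *Lyve1* (0.88), and *Cfp* most like *Clec4a2* (0.93), *Stx7* (0.92) and *Wfdc17* (0.91). These values are descriptive, since the clusters share libraries and some of these genes took part in forming them.

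To compare control with NK cell-depleted hosts, UMIs were summed over all monocyte/macrophage-like cells of a library. Of the 9 genes, 0 were more than 1.5-fold higher in the control library and 1, *C4b*, was more than 1.5-fold lower. Among all 11908 genes with at least 20 UMIs in these cells, 8.23% were past 1.5-fold higher and 3.94% past 1.5-fold lower. The median log2 ratio (control over NK cell-depleted) of the 9 genes was -0.04, beside -0.01 over all genes. Past 1.2-fold, 2 of the 9 genes were higher and 3 lower, beside 22.4% and 18.8% of all genes, and past 2-fold none was, beside 2.44% and 0.882%. The classical pathway's C1q chains were slightly higher in the control library, *C3*, *C4b* and *Cfb* lower, and the receptor *C3ar1* higher.

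By gene, *C1qa* stood at 1122 CPM in the control and 1067 CPM with NK cells depleted, a ratio of 1.05 (1.03 to 1.07). *C1qb* stood at 1039 and 767 CPM, a ratio of 1.36 (1.33 to 1.38), and *C1qc* at 748 and 685 CPM, a ratio of 1.09 (1.07 to 1.12). The chain sum gave a log2 ratio of 0.21. *C3ar1* had 551 CPM (541 to 561) in the control and 416 CPM (406 to 425) with NK cells depleted, a ratio of 1.33 (1.29 to 1.36). *C5ar1* was slightly lower in the control library, with a ratio of 0.909 (0.870 to 0.950). *Cfp* gave 0.971 (0.941 to 1.002), within counting error.

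The genes whose ratios lay farthest below 1 had fewer UMIs. *C4b* had 29.5 CPM (27.2 to 32.0) in the control and 46.6 CPM (43.6 to 49.7) with NK cells depleted, a ratio of 0.633 (0.570 to 0.703). *C3* had 55.8 CPM (52.6 to 59.2) and 83.3 CPM (79.3 to 87.5), a ratio of 0.671 (0.621 to 0.724), just inside the 1.5-fold limit. *Cfb* had 12.98 CPM (11.5 to 14.7) and 17.95 CPM (16.1 to 19.9), a ratio of 0.723 (0.614 to 0.852).

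The mixture of clusters differed between the libraries, and these ratios moved with it. Cluster 0 held 10.0% of the control and 26.4% of the NK cell-depleted cells of the class, and cluster 5 held 5.33% and 14.5%. Cluster 1 held 18.4% and 11.2%, and cluster 2 held 16.3% and 8.58%. Cluster 0 alone gave 42.8% of the *Cfb* UMIs of the class in the control and 76.1% with NK cells depleted, and cluster 5 gave 19.9% and 38.6% of the *C3* UMIs. With every cluster given the same weight in both libraries, the log2 ratio of *C3* was -0.0035 in place of -0.58, that of *C4b* was -0.05 in place of -0.66, and that of *Cfb* was 0.37 in place of -0.47. That of *C3ar1* was 0.17 in place of 0.41, and that of the C1q chain sum was 0.23. None of the 9 genes was then past 1.5-fold. *C4b* was within 1.5-fold also without cluster 1, 2 or 6, and with every cell thinned to 2000 UMIs, where its log2 ratio was -0.29 and *Cfb* was the gene past the limit, at -0.61. Leaving out a single cluster changed the sign for *Cfb*, with 0.42 without cluster 0, and for *C5ar1*, with 0.067 without cluster 0. The sign of *C1qa* changed too, with -0.090 without cluster 2 and -0.04 without cluster 5. That of *Cfp* changed with 0.048 without cluster 0 and 0.017 without cluster 13. The *Cfp* value was also above 0 with every cell thinned to 2000 UMIs, at 0.088. The C1q chain sum ranged from 0.070 without cluster 2 to 0.49 without cluster 0.

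**Figure D3:**
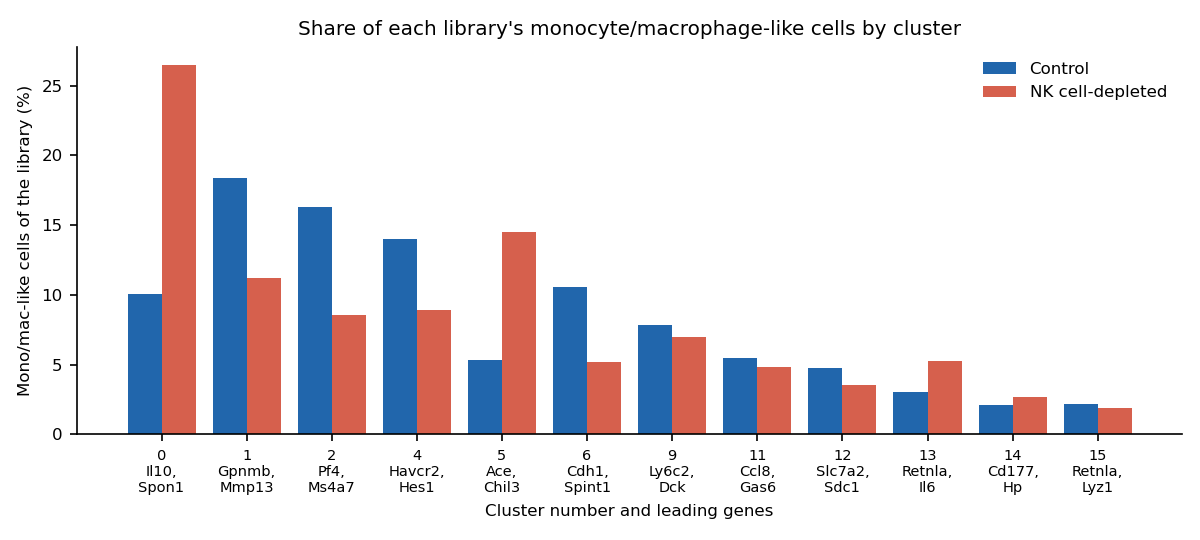
Share of each library's monocyte/macrophage-like cells (%) that fell into each of the 12 clusters, control in blue and NK cell-depleted in red, with the 2 leading genes under each cluster number. Clusters 0 and 5 hold a larger share of the NK cell-depleted library, and clusters 1, 2, 4 and 6 a larger share of the control library.

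**Figure D4:**
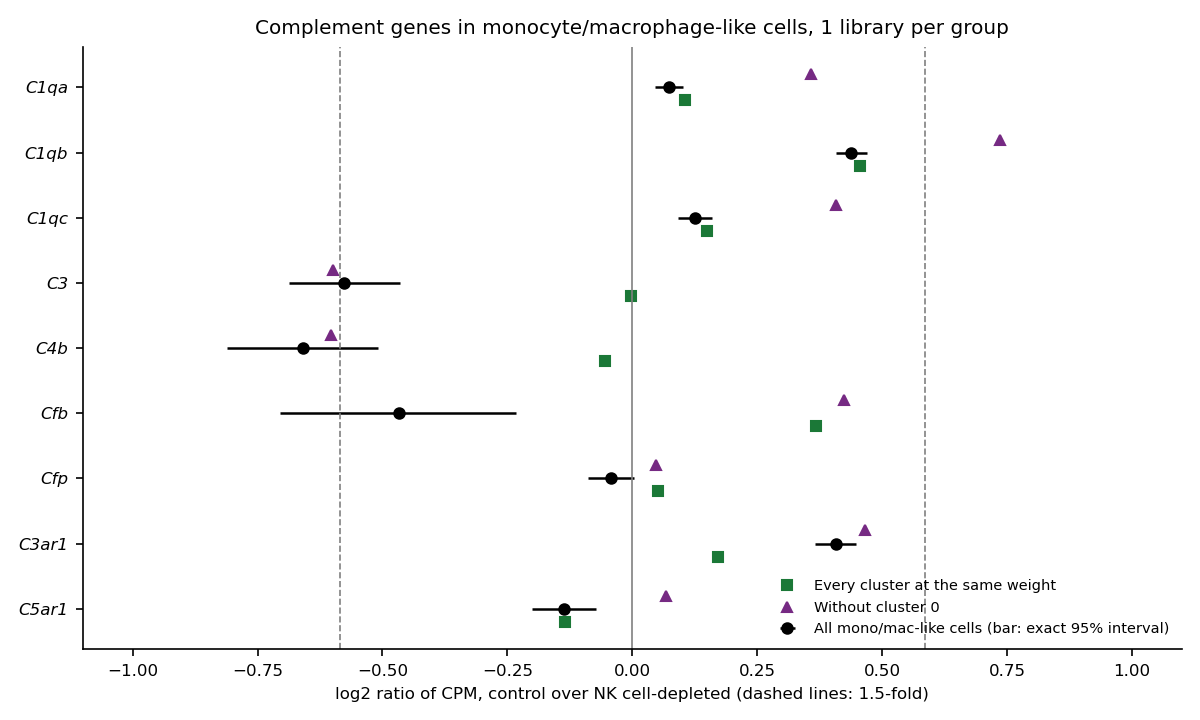
Log2 ratio of CPM, control over NK cell-depleted, of each complement gene in monocyte/macrophage-like cells (black, with exact 95% interval), with every cluster at the same weight (green squares) and without cluster 0 (purple triangles). *C3* and *C4b* lie near the lower 1.5-fold line in the sum and near 0 at equal weights, and *Cfb* changes side.

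Within clusters, *C3* in its highest clusters did not differ beyond counting error, with ratios of 1.01 (0.861 to 1.18) in cluster 5 and 1.005 (0.747 to 1.35) in cluster 14. It was lower in the control library in cluster 0 (52.9 against 79.1 CPM, ratio 0.669, 0.547 to 0.813) and in cluster 2 (30.9 against 44.5 CPM, ratio 0.694, 0.528 to 0.915), and higher in cluster 6 (76 and 18 UMIs, ratio 1.95, 1.16 to 3.47). The 5 cells with the most *C3* held 44.7% of its control and 83.3% of its NK cell-depleted UMIs in cluster 6. In cluster 2 they held 22.4% and 39.2%, and in cluster 0 13.85% and 7.82%. For *C4b* the direction differed among clusters. It was lower in the control library in cluster 2, at 7.65 against 28.9 CPM (ratio 0.265, 0.167 to 0.414), and in cluster 13 (ratio 0.534, 0.391 to 0.719), and it was higher in cluster 0 (1.24, 1.06 to 1.44) and in cluster 11 (1.65, 1.23 to 2.22). The 5 cells with the most *C4b* held 48.4% of its control and 55.6% of its NK cell-depleted UMIs in cluster 2. They held 51.7% and 36.2% in cluster 13, 26.9% and 20.1% in cluster 0, and 25.0% and 49.3% in cluster 11. The intervals do not cover this spread between cells. No cluster showed a difference in *Cfb* beyond counting error, but only 4 of the 12 had at least 20 *Cfb* UMIs over both libraries.

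At a finer resolution, cluster 0 held a portion led by *Ly6c2* (218 control and 582 NK cell-depleted cells) and a portion led by *Lyve1* (137 and 256 cells). The *Lyve1*-led portion carried 2931 and 3171 CPM of *C1qa* and 183 and 205 CPM of *C4b*. The *Ly6c2*-led portion carried 578 and 733 CPM of *C1qa*. Its *C4b* was at 52.6 CPM (41.4 to 66.0) in the control and 19.7 CPM (15.5 to 24.6) with NK cells depleted, and its *C3* at 64.6 CPM (52.1 to 79.2) and 99.3 CPM (89.6 to 110). The intervals of *Cfb* overlapped between the libraries, at 35.1 and 35.2 CPM in the *Ly6c2*-led portion and at 62.3 and 58.3 CPM in the *Lyve1*-led portion.

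For the C1q chain sum, 7 of the 12 clusters were higher in the control library beyond counting error and 4 were lower. The 5 cells with the most C1q held 49.0% and 57.5% of its UMIs in cluster 15. They held 41.7% and 38.9% in cluster 5, 33.7% and 26.3% in cluster 13, and 6.43% and 21.0% in cluster 4. In cluster 2 they held 3.33% and 6.66%. The intervals do not cover this spread between cells either. The largest difference upward was in cluster 4 (*Havcr2*, *Hes1*, *Mmp14*), with a log2 ratio of 0.74, where *C1qb* was at 965 CPM in the control and 482 CPM with NK cells depleted, a ratio of 2.00 (1.84 to 2.18). The largest difference downward was in cluster 5, with -1.15, at levels of 44.3 and 99.4 CPM that were close to those of cells outside the class. *C5ar1* was lower in the control library beyond counting error in 6 of 12 clusters, among them clusters 0, 2, 4 and 11, and higher in cluster 1. *C3ar1* was higher beyond counting error in 5 clusters and lower in 0.

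The proteins of the C1q chains are joined in a fixed proportion, but their transcripts differed unequally between the libraries, a pattern noticed after the values were seen. For each *C1qa* UMI, monocyte/macrophage-like cells held 0.926 *C1qb* UMIs in the control and 0.719 in the NK cell-depleted cells, a log2 difference of 0.37 with intervals apart. The corresponding values for *C1qc* were 0.666 and 0.642, with overlapping intervals. Of 11 clusters with at least 20 UMIs of the pair in both libraries, 9 had more *C1qb* per *C1qa* in the control library, 8 of them with intervals apart, and 2 had less with overlapping intervals. In cluster 11, for example, the values were 0.815 and 0.548, and in cluster 12 (*Slc7a2*, *Sdc1*, *Mmp12*) 1.70 and 1.11. For *C1qc* 0 of 10 clusters had intervals apart. With every cell thinned to 2000 UMIs the values for *C1qb* were 0.879 and 0.716. In the monocyte/macrophage-like cells that exceeded the filter's upper limits they were 1.14 and 1.02, with overlapping intervals. The clusters share their library, so this is a single comparison of 1 library with another.

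**Figure D5:**
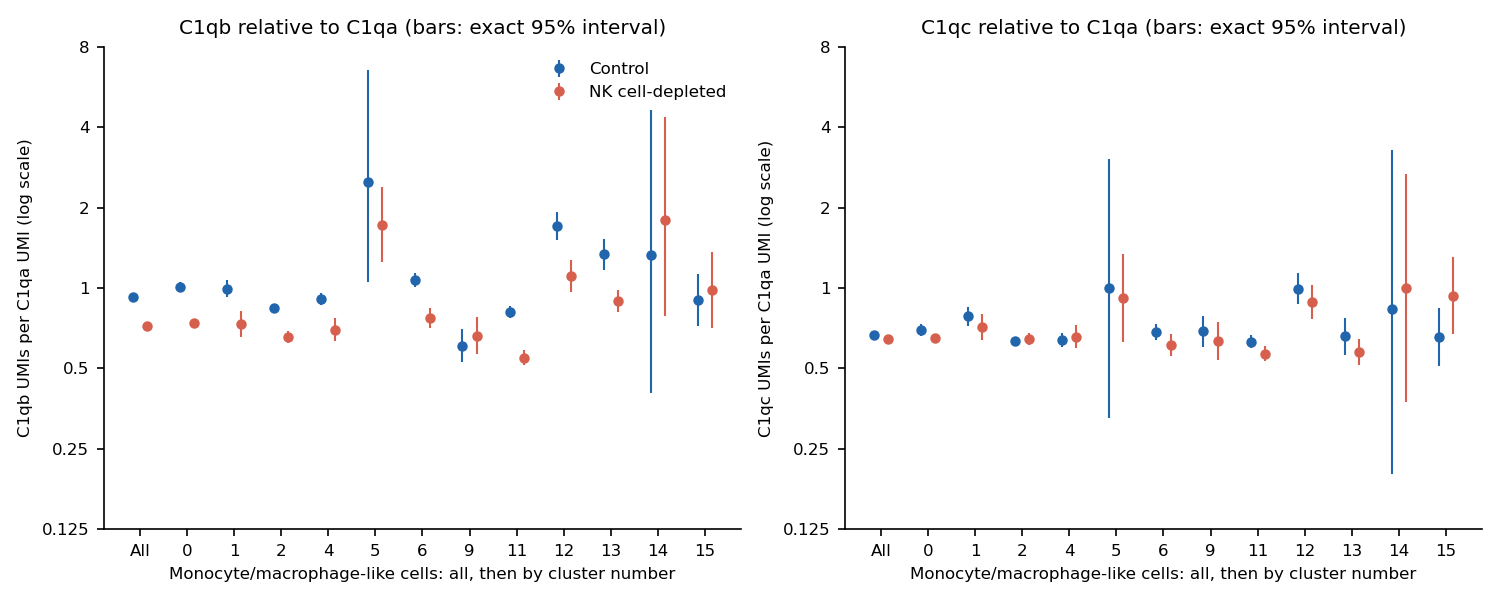
UMIs of *C1qb* (left) and *C1qc* (right) per UMI of *C1qa*, on a log scale, in all monocyte/macrophage-like cells and in each of their clusters, control in blue and NK cell-depleted in red, with exact 95% intervals. For *C1qb* the control points lie above the NK cell-depleted ones in most clusters (0.926 against 0.719 overall), and for *C1qc* the points overlap.

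Within the monocyte/macrophage-like class, summed levels of genes on the marker lists of other cell types also differed between the libraries. These lists are not specific to other cells, since *Pdpn* of the fibroblast list was also a leading gene of cluster 2. Of 12 NK cell markers, 12 were seen in control cells and 7 with NK cells depleted, with summed levels of 46.5 and 22.8 CPM. The 12 neutrophil markers summed to 451 and 386 CPM, the 16 T cell markers to 27.8 and 26.2 CPM and the 11 B cell markers to 110 and 152 CPM. The 8 fibroblast markers summed to 80.0 and 57.3 CPM, the 7 endothelial markers to 30.0 and 16.6 CPM and the 12 melanoma markers to 64.4 and 59.4 CPM. Their part in the ratios of the complement genes was not tested.

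Finally, the rest of the pathway was surveyed in a list of 45 further complement genes, of which 44 were measured and 17 had at least 20 UMIs in monocyte/macrophage-like cells. Of these 17, 4 were past 1.5-fold higher in the control library and 2 past 1.5-fold lower, beside 8.23% and 3.94% of all genes tested, with a median log2 ratio of 0.08. Like those above, these ratios come from sums over clusters whose mixture differed between the libraries. Integrin alpha X, a chain of complement receptor 4 encoded by *Itgax*, was higher, at 110 CPM (105 to 114) against 66.4 CPM. The other 3 rested on few UMIs, and their intervals included a ratio of 1: the protease gene *C2* with 17 and 10 UMIs, the membrane regulator *Cd59a* with 36 and 22, and the regulator *Susd4* with 18 and 7. *Fcna*, the ficolin A gene of the lectin pathway, was lower in the control library, with 162 and 357 UMIs and a ratio of 0.435 (0.359 to 0.525). *C6*, a terminal component, was also lower, with 4 and 30 UMIs and a ratio of 0.128 (0.0327 to 0.362), and the 5 cells with the most held 70.0% of its UMIs in the NK cell-depleted library. *Hc*, which encodes C5, had 0 UMIs in both libraries, which allows up to 0.149 and 0.155 CPM in monocyte/macrophage-like cells.

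Further genes of the list reached 100 CPM in a class. *Itgam* and *Itgb2*, the chains of complement receptor 3, were at 645 and 280 CPM in monocyte/macrophage-like cells of the control library, and at 650 and 303 CPM in those of the NK cell-depleted library. *Cd93* was at 267 and 253 CPM there. In neutrophil-like cells, *C5ar2*, the second C5a receptor, was at 146 CPM (114 to 184) and 168 CPM (139 to 203). B-like cells carried *Cr2*, complement receptor 2, at 188 and 130 CPM (21 and 9 UMIs) and the decay-accelerating factor gene *Cd55* at 610 and 635 CPM. *Cr1l* reached 105 CPM in control NK-like cells. *Clu* reached 101 CPM in migratory dendritic cell-like cells of the NK cell-depleted library, and *C1qbp* was at 215 and 253 CPM in melanoma-like cells.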

How the data were processed

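Live CD45+ cells of pooled day 4 tumors were loaded on a droplet chip for 3′ sequencing, 1 library per group. The authors deposited, for each library, raw UMI counts per gene and cell after cell calling with Cell Ranger (3.0.2 per the file headers, another release per the methods), on mm10 per the submitters' processing notes. The authors' table of normalized values was not used here. Their filter (500 to 15000 UMIs, 200 to 4000 genes, at most 10% mitochondrial UMIs) kept 5292 of 6115 control cells (24810009 UMIs) and 4506 of 5536 NK cell-depleted cells (23245982 UMIs). Sample titles gave the groups.

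The complement genes and all lists were chosen with earlier results of these data known. Cells were clustered on log2(CPM + 1) of 2000 variable genes, complement and interferon-response genes left out, with 15 principal components, 20 nearest neighbors and Leiden clustering at resolution 1 (scanpy 1.11.5, leidenalg 0.10.2, igraph 0.11.9). This gave 22 clusters. A cluster took the name of the marker list with most genes among its 50 leading genes, if at least 3 markers of that list were higher than in the other cells and no other list led its first 10 genes. These thresholds were set with the clusters in view. Cluster 8 stayed unnamed. Scrublet called 53 control and 36 NK cell-depleted cells (1.00% and 0.799%) as doublets at an expected rate of 10%, and these were kept. Likely doublets, left out in an alternative, also took in cells with at least 3 markers of another class. They were 511 of 3604 control and 488 of 3252 NK cell-depleted monocyte/macrophage-like cells.

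UMIs were summed per library and class or cluster. Levels carry exact Poisson intervals, shares exact Clopper-Pearson intervals and ratios exact conditional binomial intervals at 95%, and a count of 0 allows up to 3 counts. Log2 ratios had 0.5 UMI added to each sum. No test could be run on 1 library a group. Named were all 9 genes, other complement genes with at least 20 UMIs past 1.5-fold or at 100 CPM in a class, and the 3 genes most alike to each. A gene that met this rule is not reported here. Beside the 15 alternatives listed at the outset, leaving out each of the 12 clusters was added after seeing the data.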

Additional observations from a re-analysis of the deposited data

Results flagged for a closer look

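Cells that exceeded the filter's upper limits were outside the comparisons, and there the levels of a pair of the complement genes in monocyte/macrophage-like cells lay above those of the control library. *C4b* was at 89.4 CPM (76.7 to 104) in 105 such NK cell-depleted cells and at 34.0 CPM (25.7 to 44.0) in 91 control cells. *Cfp* was at 623 CPM (588 to 659) and 489 CPM (456 to 524) in the same cells. Each level comes from 1 library, and the difference has no replicate check. Doublets were not called among these cells, and their mixture of clusters was not compared between the libraries.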

How the results depend on the processing

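The values moved with the clusters that were summed and also with other settings, such as thinning of the cells. The log2 ratio of the C1q chain sum was 0.21, and it was 0.18 without the upper limits, 0.155 with at least 2000 UMIs and at most 5% mitochondrial UMIs, 0.33 with cells thinned to 2000 UMIs and 0.23 with clusters at the same weight. Leaving out clusters in turn, an alternative chosen after seeing the data, gave 0.070 to 0.49. Of the 9 complement genes, 1 was past 1.5-fold, against 2 at resolution 2, 3 without likely doublets, 2 without the 5 cells with the most UMIs, 0 at the same weight, 0 past 2-fold, 5 past 1.2-fold and 0 to 3 with a cluster left out. Of the other complement genes, 6 were past 1.5-fold, against 3 under the stricter filter, 3 after thinning, 2 at the same weight, 3 without the 5 top cells, 3 past 2-fold, 10 past 1.2-fold, 12 with no minimum of UMIs and 2 to 7 with a cluster left out. *Cfb* changed sign at the same weight (0.37), and *Cfp* with cells thinned to 2000 UMIs (0.088). With a cluster left out, the ranges that crossed 0 were -0.090 to 0.36 for *C1qa*, -0.28 to 0.067 for *C5ar1*, -0.70 to 0.42 for *Cfb* and -0.12 to 0.048 for *Cfp*. *C1qb* and *C3ar1* stayed higher, and *C3* and *C4b* lower, in the control library with each cluster left out. With clusters at the same weight, however, the log2 ratio was only -0.0035 for *C3* and -0.05 for *C4b*.

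The share of complement UMIs in monocyte/macrophage-like cells was 97.9% in the NK cell-depleted library, and 97.3% without the upper limits, 99.0% under the stricter filter, 98.7% after thinning, 96.0% at resolution 2, 97.5% at resolution 0.5, 97.0% with cells called one by one, 98.4% without likely doublets and 98.1% with the level of B-like and T-like cells subtracted. In the control library it was 97.8%, and in the same order, without the first of these, 98.6%, 98.5%, 96.5%, 98.0%, 96.8%, 98.8% and 98.1%, with 98.0% when interferon genes were kept in clustering. Why these values moved was not tested. No paired analysis was possible because each group was 1 library and no result came from a test. Depth limits *C4b*, *Cfb* and the rarer complement genes most, since their differences rest on the fewest UMIs.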
